A study of Danio rerio with 2 samples.

Results

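The Hox genes encode homeodomain transcription factors that give cells their position along the head-to-tail axis. All 48 annotated features whose symbol begins with hox were followed, of 25434 features in each of both count tables, through the cell types of the pharyngeal arches and within single cells. The rule read only the symbols and no measured value. Over the 8042 kept cells they held 19630 unique molecular identifiers (UMIs, each counting 1 captured transcript), 11072 in the YM library and 8558 in the DMSO library. 11 members reached 100 UMIs and together held 97.0% of the Hox UMIs. A further 35 members had between 1 and 85 UMIs, and hoxb8b and hoxc6a had none.

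The study asked how the face of the zebrafish embryo depends on signalling through the G proteins Gq and G11, which act downstream of the endothelin receptor in arch neural crest. Tg(sox10:mRFP);Tg(fli1a:EGFP) embryos, in which neural crest cells carry red and arch crest and vessels carry green fluorescence, were bathed from 16 to 36 hours post fertilization (hpf) in 100 µM YM-254890, a Gq/11 inhibitor (here YM), or in DMSO vehicle. Of 70 embryos per condition, 10 were reserved for skeletal staining and 60 heads were dissociated together, after which cells positive for both reporters were sorted at 36 hpf for 1 single-cell library read from transcript 3′ ends. With 1 pooled library per condition, treatment and library cannot be told apart, no test between conditions exists, and intervals below (95%, exact) cover counting error only. Both conditions carry the same transgenes, and the sort keeps only cells in which both transgene promoters are active.

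In vertebrates, neural crest of the first (mandibular) arch and of the frontonasal region forms without Hox expression, arch 2 (the hyoid arch) is marked by Hox group 2, and more posterior arches add groups 3, 4 and 5 in turn. In zebrafish, hoxa2b and hoxb2a together specify the hyoid identity, and their joint loss turns hyoid skeleton into a mandibular pattern. Hox proteins bind DNA with cofactors of the Pbx and Meis families, retinoic acid activates the 3′ members of each cluster, and Cyp26 enzymes break retinoic acid down.

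After filtering, 4429 YM cells (median depth 6527 UMIs) and 3613 DMSO cells (median depth 5866 UMIs) remained. The sum of kept UMIs was 30430258 in YM and 22167716 in DMSO. Cells were clustered without any Hox gene. Apart from the histone-led cluster below, the clusters were named only from marker genes, so the Hox levels could go against the names. The arch classes were posterior arch-like (526 YM and 403 DMSO cells), ventral arch-like (755 in YM, 881 in DMSO), dorsal arch 2-like (614 in YM, 371 in DMSO) and dorsal arch 1-like (434 in YM, 294 in DMSO), beside frontonasal-like cells (1051 in YM, 762 in DMSO) and gata3-positive-like cells (287 in YM, 286 in DMSO). A cluster led by histone genes (600 YM and 472 DMSO cells) was named dorsal arch 2-like by the marker rule. It was kept apart as histone-led dorsal cells because of those leading genes, a choice made after seeing the data. The 13 posterior markers, among them prdm1a and gata5, summed to 1859 CPM (UMIs of a gene per 1000000 UMIs) in YM and 1856 in DMSO posterior cells, whereas the 11 ventral markers summed to 1608 CPM in YM and 2682 in DMSO ventral cells. Markers of lateral plate and fin, the nearest other Hox-rich tissue, summed to 15.8 CPM in YM and 18.3 in DMSO posterior cells, and neural markers to 85.5 CPM in YM and 110 in DMSO. Of the dorsal arch 2 markers used here, pou3f3b served in the study as a marker of dorsal arch 1, and jag1b of dorsal arch 2. Dorsal arch 1 markers were present in both classes named dorsal arch 2-like by the marker rule. They summed to 612 CPM in YM and 719 in DMSO histone-led dorsal cells, and to 530 CPM in YM and 614 in DMSO dorsal arch 2-like cells. Only 5 cell barcodes were kept in both libraries.

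Levels are given in CPM of the UMIs of a class. They come from 3′ ends and were not divided by gene length, so a level ranks genes only as far as 3′ capture is alike. Several Hox genes overlap on the annotation (RefSeq, GRCz12tu, names only): hoxb3a spans hoxb4a, hoxb5a and hoxb6a, hoxd3a spans hoxd4a, hoxc3a spans hoxc4a to hoxc9a, and hoxb1b spans hoxb5b and hoxb6b. The feature named hoxa4a overlaps hoxa3a and is paired with the symbol HOXA3 in the identifier table, so its reads may include group 3 transcripts.

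Posterior arch-like cells had the highest summed Hox level of the crest classes, and each of the 11 abundant members stood at 14.5 CPM or more in YM and 22.1 CPM or more in DMSO there. The summed Hox level was 1119 CPM [1089, 1150] in YM and 1292 CPM [1253, 1333] in DMSO posterior cells. Ventral arch-like cells came next with 460 CPM in YM and 454 CPM in DMSO, then dorsal arch 2-like cells with 307 CPM in YM and 289 CPM in DMSO, and histone-led dorsal cells with 255 CPM in YM and 249 CPM in DMSO. The remaining crest classes were far lower: 44.6 CPM in YM and 34.4 CPM in DMSO frontonasal-like cells, 21.7 CPM in YM and 14.8 CPM in DMSO gata3-positive-like cells, and 15.6 CPM in YM and 21.3 CPM in DMSO dorsal arch 1-like cells. The dorsal arch 2-like sum depended on the clustering: with no gene kept out it was 422 CPM in YM and 469 CPM in DMSO, which turns the order of the libraries around. In YM, neighbours in this order had separate counting intervals down to the frontonasal-like cells. In DMSO the intervals of dorsal arch 2-like and histone-led dorsal cells overlapped, as did those of frontonasal-like and dorsal arch 1-like cells, and in both libraries gata3-positive-like and dorsal arch 1-like cells overlapped.

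**Figure D1:**
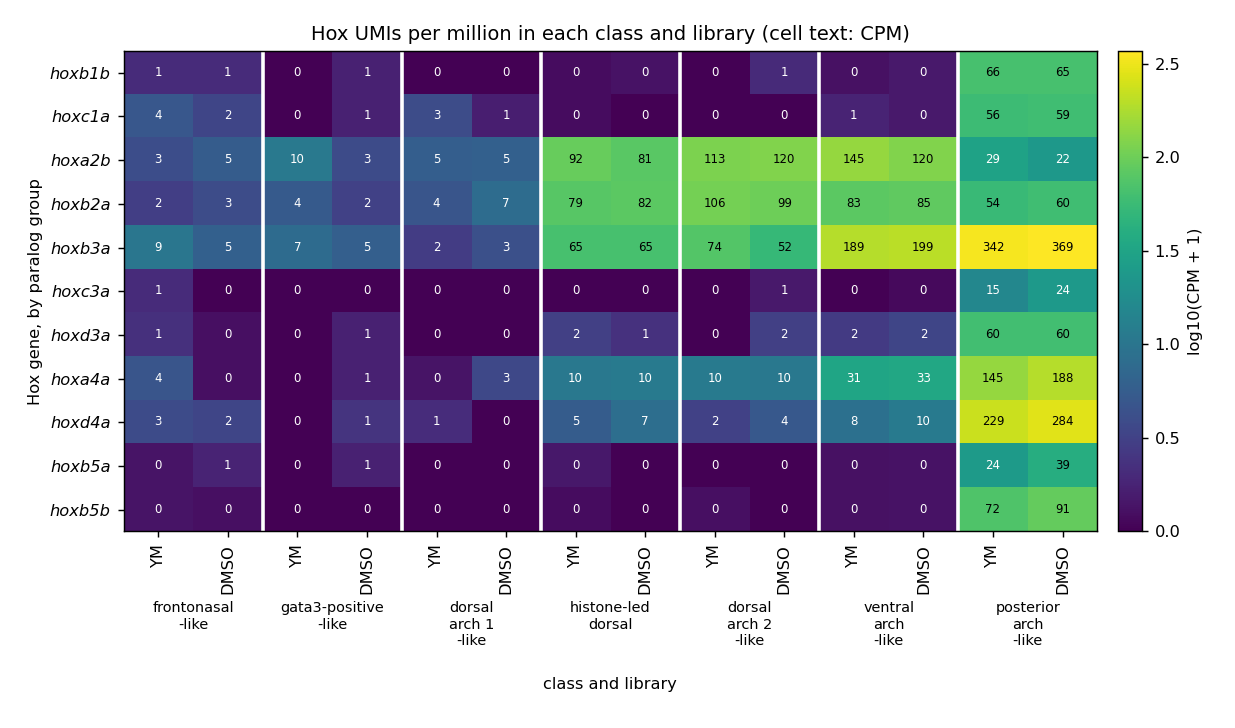
Level of the 11 abundant Hox genes (rows, by paralog group) in each class, with the YM column left of the DMSO column; colour is log10(CPM + 1) and the number in each field is CPM. Groups 1, 4 and 5 stood out in posterior arch-like cells (hoxd4a 229 CPM in YM and 284 CPM in DMSO), hoxa2b and hoxb2a in the ventral, dorsal arch 2-like and histone-led dorsal classes, and no member exceeded 9.91 CPM (hoxa2b in YM gata3-positive-like cells) in the frontonasal-like, gata3-positive-like or dorsal arch 1-like class.

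Group 1 members, the most anterior of the clusters by gene order, lay mostly in posterior cells. hoxb1b, which helps pattern the hindbrain, stood at 65.5 CPM in YM and 64.5 CPM in DMSO posterior cells, and these cells held 96.9% of its UMIs in YM and 93.6% in DMSO. hoxc1a stood at 56.3 CPM in YM and 59.2 CPM in DMSO posterior cells, which held 85.9% of its UMIs in YM and 91.7% in DMSO. In the other crest classes the highest level of either gene was 3.93 CPM, for hoxc1a in YM frontonasal-like cells. hoxb1a, which in zebrafish marks hindbrain rhombomere 4, gave only 45 UMIs, 43 of them in posterior cells.

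Group 2 had the opposite distribution. hoxa2b, which acts with hoxb2a in hyoid identity, reached 145 CPM in YM and 120 CPM in DMSO ventral cells and 113 CPM in YM and 120 CPM in DMSO dorsal arch 2-like cells, but 29.5 CPM in YM and 22.1 CPM in DMSO posterior cells. hoxb2a, its partner, reached 106 CPM in YM and 98.5 CPM in DMSO dorsal arch 2-like cells, 82.6 CPM in YM and 85.4 CPM in DMSO ventral cells, and 53.5 CPM in YM and 59.8 CPM in DMSO posterior cells. Of all hoxa2b UMIs, posterior cells held 7.21% in YM and 5.24% in DMSO, against 16.3% in YM and 15.8% in DMSO for hoxb2a. The larger share of hoxb2a UMIs in posterior cells was seen in both libraries.

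Group 3 bridged the classes through a single gene. hoxb3a was the highest Hox gene of posterior cells (342 CPM in YM, 369 in DMSO) and of ventral cells (189 CPM in YM, 199 in DMSO), with lower levels in dorsal arch 2-like cells (74.4 CPM in YM, 51.8 in DMSO) and histone-led dorsal cells (65.4 CPM in YM, 64.7 CPM in DMSO). Its relatives hoxd3a (60.5 CPM in YM, 60.1 in DMSO) and hoxc3a (14.5 CPM in YM, 23.7 in DMSO) stayed near posterior cells, which held 90.0% of hoxd3a UMIs in YM and 86.8% in DMSO.

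Of the features named as group 4, hoxa4a reached forward and hoxd4a did not. The hoxa4a reads may include group 3 transcripts, since it overlaps hoxa3a, which had no feature of its own. hoxa4a stood at 145 CPM in YM and 188 CPM in DMSO posterior cells, with 31.0 CPM in YM and 33.3 CPM in DMSO ventral cells and 10.4 CPM in YM and 9.75 CPM in DMSO dorsal arch 2-like cells. hoxd4a, the second highest Hox gene of posterior cells (229 CPM in YM, 284 in DMSO), stood at only 7.90 CPM in YM and 10.5 CPM in DMSO ventral cells. Posterior cells held 68.6% of hoxa4a UMIs in YM and 68.7% in DMSO, against 91.0% in YM and 88.7% in DMSO for hoxd4a. The third, hoxb4a, was sparse, with 79 of its 85 UMIs in posterior cells.

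Group 5 members lay mostly in posterior cells. hoxb5b stood at 71.9 CPM in YM and 90.8 CPM in DMSO posterior cells, which held 94.7% of its UMIs in YM and 96.6% in DMSO. hoxb5a, its duplicate from the genome doubling of teleost fish, stood at 24.2 CPM in YM and 39.2 CPM in DMSO. All 36 UMIs of hoxa5a lay in posterior cells too. The 31 members of groups 6 to 13, which pattern trunk and tail, shared only 359 UMIs over all cells.

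Per cell, shares with a UMI were taken after thinning each cell to 3500 UMIs, leaving out 372 YM and 395 DMSO cells with fewer. A UMI of any member was found in 93.6% of YM and 95.5% of DMSO posterior cells, 55.4% of YM and 56.7% of DMSO ventral cells, 50.2% of YM and 46.8% of DMSO dorsal arch 2-like cells and 38.2% of YM and 37.0% of DMSO histone-led dorsal cells, against 2.93% of YM and 4.53% of DMSO dorsal arch 1-like cells. Blood-like cells, taken as background, gave 1 of 64 thinned cells in YM (1.56%) and 3 of 70 in DMSO (4.29%). Their median depths before thinning were 9626 UMIs in YM and 8566 UMIs in DMSO. The shares in dorsal arch 1-like cells (median 6092 UMIs in YM, 5172 in DMSO), gata3-positive-like cells (2.70% in YM, 4.78% in DMSO) and frontonasal-like cells (4.79% in YM, 4.41% in DMSO) lay inside the blood-like intervals. With only 64 YM and 70 DMSO blood-like cells these intervals are wide. They cannot tell a share of a few percent from the background share.

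The Hox UMIs of frontonasal-like cells sat in few cells. In YM, 16 of 1051 cells with 3 or more members held 74.4% of them, and in DMSO 10 of 762 cells held 65.4%. Those 16 YM cells had frontonasal markers at 2678 CPM against 6833 CPM in the other YM cells, and posterior arch markers at 879 against 351 CPM. The 10 DMSO cells showed the same contrast (1851 against 6888 CPM, and 721 against 339 CPM). Over the whole class hoxb3a, the 1 member with at least 40 UMIs, had a log2 ratio of YM to DMSO of 0.82 [0.04, 1.67] (2.58% of its 8136 features were at least 1.5-fold higher and 3.85% at least 1.5-fold lower), and the part of these cells in that value was not tested.

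The highest paralog group with a UMI in a cell gives a rough Hox address. In posterior cells it was group 4 in 45.2% of YM and 47.7% of DMSO cells and group 5 in 27.6% of YM and 31.8% of DMSO cells. In ventral cells it was group 2 in 32.6% of YM and 33.0% of DMSO cells, group 3 in 13.2% of YM and 13.4% of DMSO cells, and group 4 in 9.16% of YM and 9.55% of DMSO cells. In both classes the group 4 address includes hoxa4a, whose reads may include group 3 transcripts. The ventral group 4 address came mostly from hoxa4a. It was found in 58 YM and 71 DMSO thinned ventral cells, against 14 YM and 18 DMSO cells for hoxd4a. In dorsal arch 2-like cells group 2 led with 39.5% of YM and 37.7% of DMSO cells. A transcript present but not captured lowers such an address. Posterior cells showed on average 2.70 members in YM and 3.01 in DMSO.

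**Figure D2:**
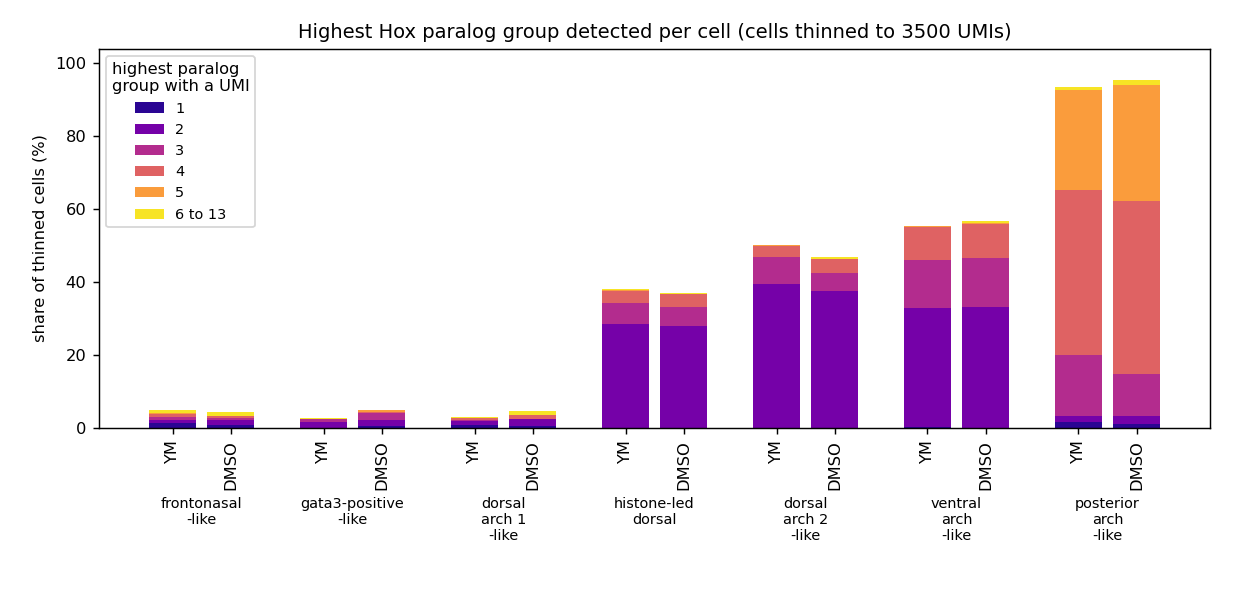
Share of thinned cells (3500 UMIs each) by the highest Hox paralog group with at least 1 UMI, per class, with YM left of DMSO; the height of a bar is the share with any Hox UMI. Posterior arch-like bars reach 93.6% in YM and 95.5% in DMSO and consist mostly of groups 4 and 5, ventral, dorsal arch 2-like and histone-led dorsal bars consist mostly of group 2, and frontonasal-like, gata3-positive-like and dorsal arch 1-like bars reach at most 4.79% in YM and 4.78% in DMSO.

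hoxb3a gave more UMIs per positive cell than hoxb2a. Ventral cells with hoxb3a had on average 2.74 of its UMIs in YM and 2.94 in DMSO, and 3 or more in 44.9% of YM and 55.1% of DMSO such cells. Ventral cells with hoxb2a averaged 1.33 UMIs of it in YM and 1.37 in DMSO, although the share of cells with each gene was alike (20.9% in YM and 22.5% in DMSO for hoxb2a, 21.0% in YM and 21.8% in DMSO for hoxb3a). In posterior cells hoxb3a averaged 1.95 UMIs per positive cell in YM and 2.02 in DMSO with 3 or more in 21.8% of YM and 28.8% of DMSO positive cells, lower than in ventral cells in both libraries.

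Within ventral arch-like cells hoxb2a and hoxb3a seldom met in a cell. Both were found in 13 YM cells, where the product of their shares gives 32.6, and in 13 DMSO cells, where it gives 41.7, a ratio of observed to product of 0.40 in YM and 0.31 in DMSO. hoxb2a was present in 8.33% [4.51, 13.8] of YM cells with hoxb3a and in 24.2% of those without, and in 7.03% [3.79, 11.7] of DMSO cells with hoxb3a and 26.8% of those without. Without thinning the ratio was 0.73 in YM and 0.56 in DMSO, and with 2 UMIs of each gene required it was 0.17 in YM and 0.11 in DMSO. Joint detection was also below the product in histone-led dorsal cells (0 cells with both in YM where the product gives 8.51, and 3 in DMSO where it gives 7.66) and in YM dorsal arch 2-like cells (3 against 14.3), while DMSO dorsal arch 2-like cells had 4 against 5.36.

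The pairs hoxb3a with hoxa4a and hoxa2b with hoxb2a met more often in ventral cells than their shares give. hoxb3a and hoxa4a were found together in 53 YM cells (ratio 4.35) and 64 DMSO cells (ratio 4.13), and only 0.85% of YM and 1.06% of DMSO cells without hoxb3a had hoxa4a. hoxa2b and hoxb2a were found together in 83 YM cells (ratio 1.58) and 106 DMSO cells (ratio 1.76). hoxa2b and hoxb3a were found together in 71 YM cells (ratio 1.35), but in DMSO in 61 cells, close to the product of 58.5 (ratio 1.04).

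**Figure D3:**
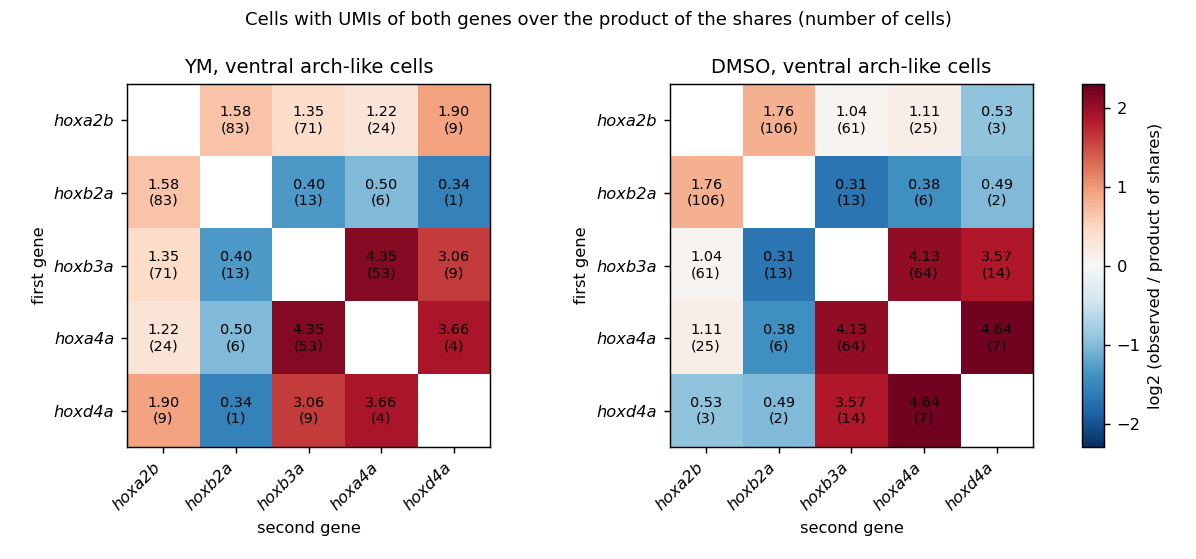
Number of ventral arch-like cells with UMIs of both genes over the number that the product of their shares gives, for 5 Hox genes in YM (left) and DMSO (right), with the number of cells in brackets; red is above 1, blue below 1, on a log2 scale. The pair hoxb2a and hoxb3a is blue in both libraries (0.40 in YM, 0.31 in DMSO) and hoxb3a and hoxa4a is red in both (4.35 in YM, 4.13 in DMSO).

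In posterior cells hoxb2a and hoxb3a met as often as the product of their shares gives. Both were found in 58 YM cells (ratio 1.01) and 53 DMSO cells (ratio 1.05). Over the 55 pairs of abundant members the median ratio was 1.13 in YM and 1.12 in DMSO. The duplicates hoxb5a and hoxb5b met in 21 YM cells (ratio 2.10) and 22 DMSO cells (ratio 1.92). hoxa2b and hoxb2a, partners in the ventral class, met in 4 YM cells (ratio 0.47) and 3 DMSO cells (ratio 0.54), with overlapping intervals for cells with and without hoxa2b.

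Ventral cells were divided by these genes, a division made after the co-detection had been seen. In YM 142 of 742 cells (19.1%) had hoxb2a alone, 143 (19.3%) hoxb3a alone and 444 neither. In DMSO 178 of 848 cells (21.0%) had hoxb2a alone, 172 (20.3%) hoxb3a alone and 485 neither. hoxa4a was at 0 of 142 YM and 0 of 178 DMSO cells with hoxb2a alone, since all 6 cells of each library with both hoxa4a and hoxb2a also had hoxb3a, and in 32.9% of YM and 33.7% of DMSO cells with hoxb3a alone. hoxa2b was present in 54.2% of YM and 56.7% of DMSO cells with hoxb2a alone and in 45.5% of YM and 32.6% of DMSO cells with hoxb3a alone.

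Genes outside the Hox clusters followed the same division in both libraries. gsc, a homeobox gene of the anterior arches and a marker of the ventral class, was present in 12.7% of YM and 20.2% of DMSO cells with hoxb2a alone, and in 0 of 143 YM and 0 of 172 DMSO cells with hoxb3a alone, which by a floor of 3 counts allows a share of cells with a UMI of up to 2.10% in YM and 1.74% in DMSO (exact upper bounds 2.55% in YM and 2.12% in DMSO). meis2a.1, a Hox cofactor gene, was present in 46.5% of YM and 43.3% of DMSO cells with hoxb2a alone and in 11.9% of YM and 15.7% of DMSO cells with hoxb3a alone. The cofactor gene meis1a gave 50.7% in YM and 50.6% in DMSO with hoxb2a alone, and 28.0% in YM and 20.3% in DMSO with hoxb3a alone. hand2, the ventral determinant, was alike on both sides (62.7% of YM and 59.0% of DMSO cells with hoxb2a alone, 60.8% of YM and 63.4% of DMSO cells with hoxb3a alone).

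**Figure D4:**
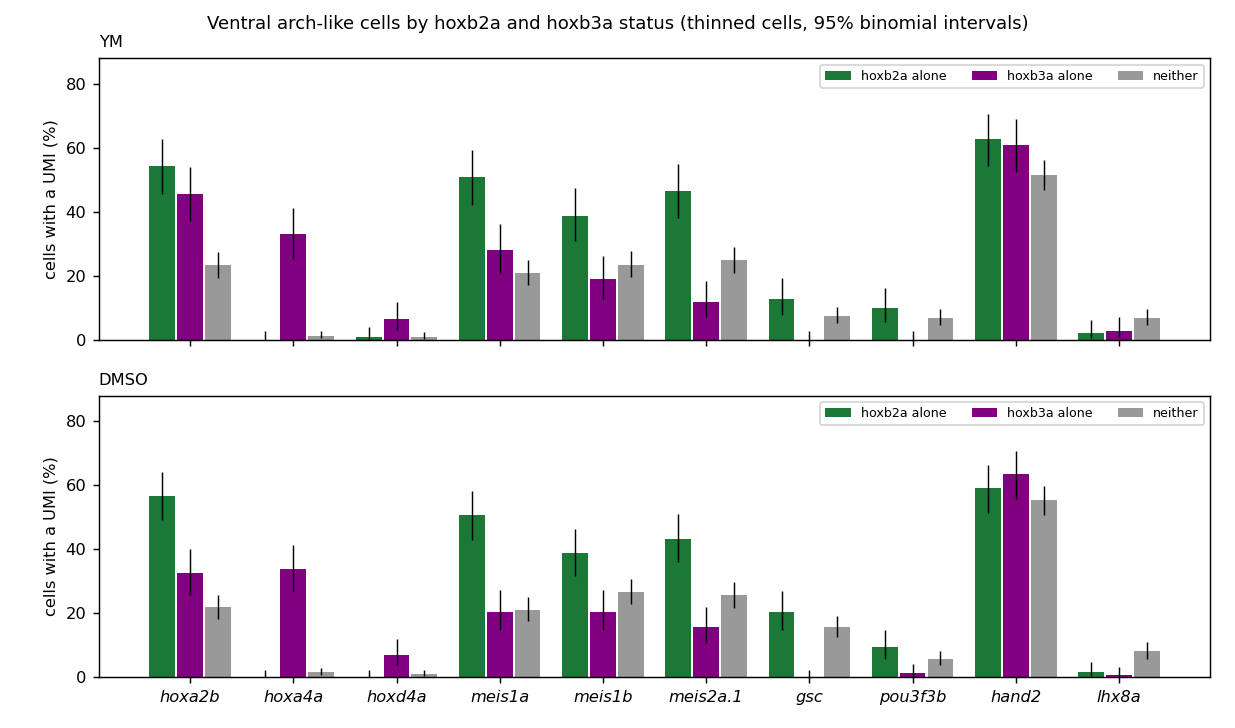
Share of thinned ventral arch-like cells with a UMI of each gene, by whether the cell had hoxb2a alone (green), hoxb3a alone (purple) or neither (grey), in YM (top) and DMSO (bottom); bars are shares and lines exact 95% binomial intervals. hoxa4a was at 0 with hoxb2a alone (32.9% in YM and 33.7% in DMSO with hoxb3a alone) and gsc was at 0 with hoxb3a alone (0 of 143 in YM, 0 of 172 in DMSO), while hand2 was alike on both.

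Over the 2206 genes with enough UMIs, 1.68% were at least 1.5-fold higher and 1.41% at least 1.5-fold lower in cells with hoxb2a alone than in cells with hoxb3a alone, in both libraries. The genes ranked first by the smaller of both differences, chosen after their values were seen, were the chemokine gene cxcl12a (log2 difference 1.80 in YM and 1.95 in DMSO), the FGF receptor gene fgfr2 (1.79 in YM, 1.81 in DMSO), meis2a.1 (2.55 in YM, 1.72 in DMSO), the retinoic acid carrier gene crabp2b (2.41 in YM, 1.52 in DMSO) and the proteoglycan gene dcn (1.505 in YM and 2.31 in DMSO) with hoxb2a. With hoxb3a they were mef2ca, a transcription factor gene of arch skeleton (log2 difference −1.84 in YM and −2.05 in DMSO), the BMP antagonist gene grem2b (−2.53 in YM, −1.41 in DMSO), lmo4b (−1.37 in YM, −1.63 in DMSO), sox6 (−1.91 in YM, −1.31 in DMSO) and tuba8l3 (−1.23 in YM and −1.75 in DMSO). Between ventral cells with and without a hoxa2b or hoxb2a UMI, dcn went the other way (−1.47 in YM, −1.13 in DMSO). Cells, not embryos, stand behind these differences, and each library is 1 pool.

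Between both libraries, the group sums of posterior cells were lower in YM mainly in groups 4 and 5. Group 4 as a sum had a log2 ratio of YM to DMSO of −0.33 [−0.43, −0.23] and group 5 of −0.39 [−0.58, −0.20], against −0.12 [−0.22, −0.02] for group 3, 0.02 [−0.21, 0.25] for group 2 and −0.06 [−0.24, 0.13] for group 1. The group 4 sum includes hoxa4a, whose reads may include group 3 transcripts. Not every member followed the sum of its group. In group 2, hoxa2b had 0.41 [−0.01, 0.85] and hoxb2a −0.16 [−0.44, 0.12]. The lower hoxc3a of group 3 and hoxb1a of group 1 are given below. hoxb4a had 0.04 [−0.64, 0.74]. The sparse hoxa5a gave 24 posterior UMIs in YM and 12 in DMSO, hoxc5a 7 and 3, and hoxc4a 8 and 8. Of 13 members with at least 40 UMIs, 3 were at least 1.5-fold lower in YM, where 4.44% of all 7123 such features were, and 0 were at least 1.5-fold higher, where 3.41% of features were. The median over the 13 members was −0.16, beside −0.03 over all features, and 9 of the 13 lay below 0. The 3 were hoxb5a (−0.70 [−1.07, −0.32]), hoxc3a (−0.71 [−1.20, −0.22]) and hoxb1a (−0.92 [−1.87, 0.01]), with 239, 144 and 43 UMIs over both libraries.

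Per-cell shares of hoxd4a, hoxa4a and hoxb5b in posterior cells were lower in YM too. hoxd4a (log2 ratio −0.31 [−0.44, −0.18]) was present in 47.8% [43.4, 52.2] of YM and 58.3% [53.3, 63.2] of DMSO thinned posterior cells. hoxa4a (−0.38 [−0.54, −0.22]) was present in 35.1% of YM and 43.9% of DMSO cells, and hoxb5b (−0.34 [−0.57, −0.11]) in 21.7% of YM and 26.0% of DMSO cells. The intervals of the YM and DMSO shares lay apart for hoxd4a but overlapped for hoxa4a and hoxb5b. At resolution 1.2, where the single posterior cluster split in 2, both showed this order: hoxd4a stood at 204 CPM in YM and 259 CPM in DMSO in the larger cluster, and at 279 CPM in YM and 335 CPM in DMSO in the smaller. On thinned counts hoxb5a gave −0.44, under the 1.5-fold mark. The posterior share of kept cells was 11.9% in YM and 11.2% in DMSO.

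In ventral cells none of the 5 measured Hox members was 1.5-fold apart between libraries, too few members to set them apart from all features. Of 5 members, 0 were at least 1.5-fold higher in YM (2.78% of 8301 features were) and 0 at least 1.5-fold lower (4.14% were), with a median of −0.07 beside −0.03 over all features. hoxa2b was higher in YM, with a log2 ratio of 0.27 [0.13, 0.41], while hoxb2a (−0.05 [−0.23, 0.13]) and hoxb3a (−0.07 [−0.19, 0.04]) had intervals across 0. On counts thinned to equal depth the hoxa2b ratio was 0.15. By status, the hoxa2b ratio was 0.01 [−0.36, 0.37] in cells with hoxb2a alone, 0.58 [0.12, 1.05] in cells with hoxb3a alone and 0.09 [−0.23, 0.41] in cells with neither. The ventral class itself took 17.0% of YM and 24.4% of DMSO cells, and its markers were lower in YM as given above. Their part in the hoxa2b value was not tested.

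Of the ventral arch genes, barx1 and dlx5a were lower in YM on both sides of the Hox division. gsc had a log2 ratio of −0.95 [−1.64, −0.30] in cells with hoxb2a alone and −1.56 [−2.09, −1.07] in cells with neither. With hoxb3a alone gsc had too few UMIs for a ratio. barx1, a homeobox gene of arch cartilage, had −0.43 [−0.76, −0.10] with hoxb2a alone, −0.79 [−1.05, −0.53] with hoxb3a alone and −0.94 [−1.12, −0.76] with neither. dlx5a, a target of endothelin signalling, had −0.45, −0.52 and −0.53 in the same order. hand2 had −0.11 [−0.36, 0.13], −0.31 [−0.54, −0.08] and −0.24 [−0.40, −0.09] in that order. The arch genes six1a, nr2f2 and nr2f5 had intervals across 0 on both sides. With neither gene, six1a and nr2f5 again had intervals across 0, but nr2f2 had −0.61 [−1.01, −0.22]. Shares over all features were not taken in these sets of cells. Differences between these sets of cells were not tested.

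**Figure D5:**
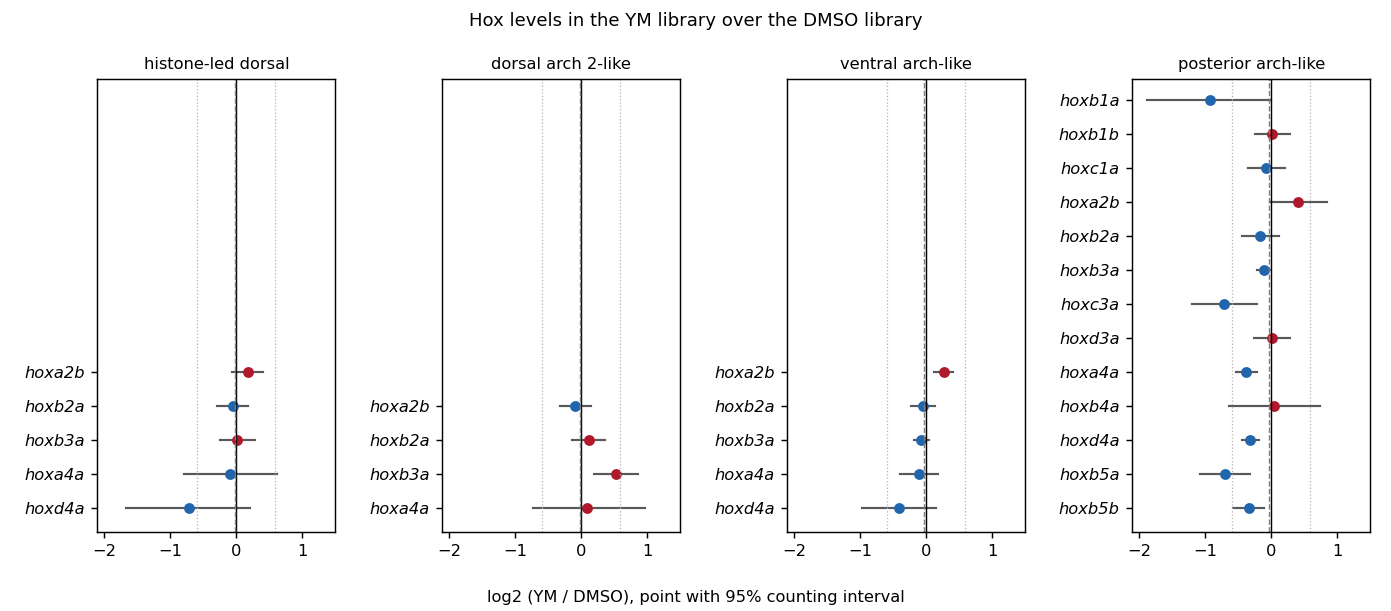
Log2 ratio of YM to DMSO for each Hox gene with at least 40 UMIs in a class, with its exact 95% counting interval; the solid line is 0, the dashed line the median over all features of that class and the dotted lines 1.5-fold, with points above 0 red and below 0 blue. In posterior arch-like cells hoxa4a, hoxd4a, hoxb5a, hoxb5b and hoxc3a lie left of 0 with intervals that leave it out, and in ventral arch-like cells hoxa2b lies right of 0 (0.27).

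The dorsal classes gave smaller sums. In dorsal arch 2-like cells 0 of 4 members were at least 1.5-fold higher (4.37% of features were) and 0 at least 1.5-fold lower (4.74% were). hoxb3a had a log2 ratio of 0.52 [0.19, 0.87] there, from 279 UMIs in YM and 101 in DMSO. That value rested on how cells were clustered: it was 0.05 when only Hox genes and transgenes were kept out of clustering and 0.17 when no gene was, and −0.12 over all kept cells. In histone-led dorsal cells 1 of 5 members, hoxd4a (−0.72 [−1.66, 0.21], 20 UMIs in YM and 23 in DMSO), was at least 1.5-fold lower, where 3.82% of features were, and 0 were higher, where 3.13% were. Over all kept cells 1 of 14 members was lower (hoxb1a, 4.71% of features) and 0 were higher (2.84%), with a median of −0.10 beside −0.06 over all features.

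Cells with a group 2 UMI (hoxa2b or hoxb2a) made up 43.5% of YM and 41.6% of DMSO ventral cells, 42.3% of YM and 41.1% of DMSO dorsal arch 2-like cells, 30.5% of YM and 30.6% of DMSO histone-led dorsal cells and 26.2% of YM and 26.0% of DMSO posterior cells. With no gene kept out of clustering the dorsal arch 2-like share was 58.7% in YM and 67.7% in DMSO. Among dorsal arch 1-like cells they were 5 of 409 in YM and 5 of 265 in DMSO. In the histone-led dorsal cells, group 2 status went with the dorsal arch markers lhx8a and pou3f3b. lhx8a, a marker of the dorsal first arch, was present in 4.60% of YM and 2.16% of DMSO cells with group 2, against 13.9% of YM and 14.9% of DMSO cells without. pou3f3b was used here as a marker of the dorsal second arch, whereas the study used it to mark dorsal arch 1. It was present in 42.5% of YM and 48.2% of DMSO cells with group 2, against 17.6% of YM and 18.1% of DMSO cells without. Dorsal arch 1-like cells without group 2 had it at 18.6% in YM and 16.2% in DMSO. In the histone-led dorsal cells meis1a gave 51.1% in YM and 39.6% in DMSO cells with group 2. Without group 2 it gave 14.1% of YM and 8.25% of DMSO cells.

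In ventral cells 323 YM and 353 DMSO cells had group 2, and 419 YM and 495 DMSO cells did not. In both libraries 0.6% of 4166 genes were at least 1.5-fold higher in cells with group 2 and 1.03% at least 1.5-fold lower. Leading the higher genes were the semaphorin gene sema3bl (log2 difference 2.61 in YM, 2.07 in DMSO), the endoribonuclease family gene endouc (1.79 in YM, 1.33 in DMSO), meis1a (1.29 in YM, 1.47 in DMSO), gsc (1.496 in YM, 1.19 in DMSO) and mpped2 (1.15 in YM, 1.14 in DMSO). Leading the lower genes were the collagen gene col1a1b (−1.97 in YM, −2.004 in DMSO), the ephrin gene efna5a (−1.92 in YM, −2.25 in DMSO), ndnf (−1.65 in YM, −1.59 in DMSO), the homeobox gene msx3 (−1.40 in YM, −1.39 in DMSO) and the Slit receptor gene robo1 (−1.41 in YM, −1.34 in DMSO).

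Of the Hox cofactor genes (Pbx, Meis and Pknox families, 14 measured of 15 listed), 6 had enough UMIs. In both libraries 3 of these 6 were at least 1.5-fold higher in ventral cells with group 2 (0.6% of 4166 genes were). None was lower, where 1.03% of genes were. The 3 were meis1a, meis2a.1 and meis1b (log2 difference 0.75 in YM, 0.85 in DMSO), while pbx4, the main embryonic Pbx gene of zebrafish, showed 0.14 in YM and 0.13 in DMSO. Of the listed Hox regulators (retinoic acid receptors and enzymes, Polycomb and Trithorax group genes, hindbrain factors) 0 of 9 passed in either direction, against the same shares. The 9 with enough UMIs held no retinoic acid enzyme and no hindbrain factor. Of the arch genes listed as tied to group 2, gsc was higher and lhx8a and dlx5a (−0.64 in YM, −0.62 in DMSO) were lower, of 12, against the same shares.

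In posterior cells 0 of 11 cofactor genes were at least 1.5-fold higher in YM (3.41% of features were) and 0 at least 1.5-fold lower (4.44% were), with a median of 0.07 beside −0.03 over all features. The cofactor gene meis3 was lower in YM by less than that mark, at 177 CPM in YM and 228 CPM in DMSO (−0.37 [−0.52, −0.22]). Of 12 regulator genes 0 were at least 1.5-fold lower and 1 was at least 1.5-fold higher, against the same background, mafba, which drives group 3 expression in the hindbrain (9.06 CPM in YM, 5.38 CPM in DMSO, 0.75 [−0.09, 1.66]). The Polycomb gene suz12a had a log2 ratio of −0.55 [−0.94, −0.16]. The retinoic acid receptor gene raraa (296 CPM in YM, 290 in DMSO) and cyp26a1 (76.3 CPM in YM, 84.5 in DMSO), both also used to name this class, had log2 ratios of 0.03 for raraa and −0.15 for cyp26a1. In ventral cells, where 2.78% of features were at least 1.5-fold higher and 4.14% lower, 0 of 10 cofactor genes were lower and 2 were higher, pbx3b (36.0 CPM in YM, 24.0 CPM in DMSO) and meis2a (8.37 CPM in YM, 4.34 CPM in DMSO), while of 14 regulators raraa was higher (0.59 [0.08, 1.12]) and cyp26b1 lower (−1.61 [−2.74, −0.59], 11 UMIs in YM and 33 in DMSO).

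Of the 21 measured arch genes tied to group 2, 19 had enough UMIs in ventral cells, with a median of −0.27 beside −0.03 over all features. In YM 1 was at least 1.5-fold higher (2.78% of features were), the Notch ligand gene jag1b (64.6 CPM in YM, 35.9 CPM in DMSO), and 6 were lower (4.14% of features were): gsc (23.2 CPM in YM, 61.5 CPM in DMSO), nkx3-2, the jaw joint gene (1.90 CPM in YM, 9.01 CPM in DMSO), gbx2 (6.00 CPM in YM, 13.2 CPM in DMSO), barx1 (276 CPM in YM, 486 CPM in DMSO), dlx5a (277 CPM in YM, 416 CPM in DMSO) and pitx1 (3.32 CPM in YM, 5.79 CPM in DMSO). In posterior cells 0 of 12 were higher (3.41% of features were) and 0 lower (4.44% were). Several of these genes are ventral markers of the class definition. The list also holds dlx5a and hand2, which the study had reported as lowered by YM in these same libraries. These counts therefore cannot be read as a result about genes tied to group 2.

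Several sparse members had most of their UMIs outside the arch classes, in few cells. hoxb9a was the most abundant of groups 6 to 13 with 51 UMIs, 27 of them in the 93 epidermal-like cells. Over all kept cells it was found in 10 YM and 9 DMSO cells. hoxb8a had 12 of 21 and hoxb7a 8 of 13 UMIs there. Epidermal-like cells with 2 or more UMIs of the neuronal genes elavl3 or elavl4 (13 in YM, 8 in DMSO) carried Hox UMIs at 1829 CPM in YM and 955 CPM in DMSO, against 594 CPM in YM and 354 CPM in DMSO in the others of this class. UMIs of the group 13 members hoxc13a (15 of 21 UMIs) and hoxc13b (11 of 13 UMIs) lay mostly in frontonasal-like cells. They came from a handful of cells. Over all kept cells hoxc13a was found in 5 YM and 4 DMSO cells, and hoxc13b in 3 YM and 2 DMSO cells. Over all kept cells hoxb9a had a log2 ratio of YM to DMSO of 0.54 [−0.34, 1.48].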

How the data were processed

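Per the labels and the study's methods, libraries were made with a 3′ single-cell kit. The authors aligned reads to GRCz11 and deposited unfiltered UMI counts per gene and barcode (submitters' notes: Cell Ranger 5.0.1, Seurat 4.3.0). Here cells were called from these counts (at least 500 UMIs, false discovery rate 0.01) and kept with at least 200 genes, at most 3500 (YM) or 3000 (DMSO) genes and at most 5% mitochondrial UMIs. The library totals were 33649382 UMIs for YM and 25340682 for DMSO. Cells were clustered with Seurat 5.3.0 in R 4.3.3 (2000 variable genes, 30 principal components, resolution 0.8, 16 clusters). In this step 147 genes were kept out of the variable genes. Among them were all 48 Hox genes, the cofactors, the transgenes and the genes the study listed as differing between DMSO and YM. Markers the study used for the intermediate arch domain were kept out too. Scrublet marked 3 YM and 1 DMSO cells, too few to have worked, so doublets were not removed. Free RNA made up an estimated 0.394% of UMIs in YM and 0.561% in DMSO.

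Sums per class were divided by class UMIs, with exact Poisson, binomial and conditional binomial 95% intervals (scipy 1.17.1, Python 3.11.15). These cover counting error only. Ratios were taken for genes with at least 40 UMIs over both libraries. A fold of 1.5 was used as a mark, not a test, since each condition has 1 library. Members with at least 100 UMIs were described singly. A share of 0 allows 3 counts of the total. The script was tested on simulated data. Alternatives were another set of genes kept out of clustering, resolution, thinning depth, detection at 2 UMIs, doublet removal, a count filter and TMM factors (edgeR 4.0.16). Members and lists were chosen with earlier results of these data known, and the division by hoxb2a and hoxb3a and the separate histone-led class were set after seeing the data. No sequences are shown.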

Additional observations from a re-analysis of the deposited data

Results flagged for a closer look

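Paralog group 3 and group 4 sums differed in direction between classes, and none of these differences was tested. Group 3 had a log2 ratio of YM to DMSO of 1.08 in frontonasal-like cells (64 UMIs in YM, 20 in DMSO) and of 0.45 in dorsal arch 2-like cells (279 in YM, 106 in DMSO), against −0.12 in posterior arch-like cells. Group 4 had 1.19 in frontonasal-like cells (38 UMIs in YM, 11 in DMSO), against −0.33 in posterior arch-like cells. Most frontonasal-like Hox UMIs came from 16 YM and 10 DMSO cells.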

How the results depend on the processing

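Of 165 alternative values for 19 summary results, 134 stayed within the spread and 31 moved. A change of direction was counted only for log2 ratios of single genes whose interval left out 0. Of 914 alternatives for 105 single genes or pairs, 820 stayed, 93 moved and 1 changed direction by that rule. It was hoxb3a of dorsal arch 2-like cells, at −0.12 when all kept cells formed 1 class. Values with intervals across 0 changed sign too. With all kept cells as 1 class, the Hox median went from 0.10 (4 dorsal arch 2-like members) to −0.10 (14 members). The hoxb2a ratio went from 0.11 in dorsal arch 2-like cells to −0.07. The dorsal arch 2-like class depended most on clustering. Its summed Hox level was 411 CPM in YM and 440 CPM in DMSO with only Hox genes and transgenes kept out, 422 CPM in YM and 469 CPM in DMSO with no gene kept out, 388 CPM in YM and 390 CPM in DMSO at resolution 1.2, and 279 CPM in YM and 264 CPM in DMSO with the histone-led cluster added, an alternative chosen after seeing the data. The share of its cells with hoxa2b or hoxb2a was 59.1% in YM and 62.9% in DMSO, 58.7% in YM and 67.7% in DMSO, 55.9% in YM and 60.2% in DMSO, and 36.4% in YM and 34.9% in DMSO in the same order. It was 53.1% in YM without thinning, and 30.2% in YM and 28.3% in DMSO at 2000 UMIs. For ventral cells the share was 59.9% in YM and 54.9% in DMSO without thinning and 32.2% in YM and 31.3% in DMSO at 2000 UMIs, and the summed level was 484 CPM in YM and 475 CPM in DMSO at resolution 1.2. The share of ventral hoxb3a cells with hoxb2a was 27.5% in YM and 19.8% in DMSO without thinning, 3.88% in YM at 2000 UMIs, and 0.893% in YM and 0.676% in DMSO with 2 UMIs required. In posterior cells 5 members were 1.5-fold lower with 1 UMI per library required, a filter that lets in members with few UMIs. Neither the members higher nor the share over all features was counted at this filter, so the 5 cannot be set against a background. Across alternatives the posterior log2 ratios ranged between −0.54 and −0.25 for hoxa4a and −0.43 and −0.22 for hoxd4a. Those of hoxb5a ranged between −0.73 and −0.44, those of hoxb5b between −0.34 and −0.18, and those of ventral hoxa2b between 0.08 and 0.36. These alternatives included all kept cells as 1 class, which is not a value of posterior or ventral cells. That setting gave the ends −0.25 for hoxa4a, −0.22 for hoxd4a, −0.18 for hoxb5b and 0.08 for hoxa2b. Beyond what each setting changes by construction, the cause of these shifts was not tested. Resolution 0.3 gave no ventral or dorsal arch class. No paired analysis was possible because each condition has 1 library.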
